A study of Mus musculus with 16 samples.

Results

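Condensin and cohesin are ring-shaped protein complexes that fold and hold chromosomes, and 10 genes encoding their subunits were followed in microglia, the tissue macrophages of the nervous system, sorted from mouse retina. The members were taken by gene symbol: Smc2, Smc4, Ncapd2, Ncapg, Ncaph, Ncapd3 and Ncapg2 for condensin, and Smc1a, Smc3 and Rad21 for cohesin. All 10 were found among the 54532 genes of the deposited table, and all 10 passed the low-count filter that left 12496 genes for testing. RNA was sequenced from 8 libraries of pups with oxygen-induced retinopathy (OIR), a model in which the retina loses vessels in high oxygen and becomes hypoxic in room air, and from 8 libraries of pups without it (nonOIR). Both groups were Cx3cr1CreERT2:Rosa26-tdTomato mice at postnatal day 17. Each had received tamoxifen under the skin (5 µl of a 21 mg/ml solution) on postnatal day 1, which lets a recombinase driven from the Cx3cr1 locus of microglia and related myeloid cells switch on a red reporter. Cells were sorted as reporter-positive, CD11b-positive and CD45-low, without Ly6C and Ly6G. The labels do not say whether a library is 1 animal or a pool, so p-values measure the spread between libraries, which may be partly technical. A code in the library name placed 5 libraries of each group in lane 1 and 3 in lane 2.

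Each complex has a pair of long SMC ATPases joined at one end and closed by a kleisin subunit, and further subunits bind the kleisin. Condensin exists as 2 complexes that share SMC2 and SMC4: condensin I, with NCAPD2, NCAPG and the kleisin NCAPH, reaches chromosomes after the nuclear envelope breaks down, and condensin II, with NCAPD3, NCAPG2 and the kleisin NCAPH2, is nuclear through the cell cycle. Cohesin, with SMC1A, SMC3 and the kleisin RAD21, holds sister chromatids together and also forms chromatin loops in cells that do not divide. Microglia divide little in the resting retina and can proliferate after injury.

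Libraries held between 13591651 and 30001463 gene counts. All 12 microglial markers were detected, with a summed level of 36742 to 61362 CPM (counts scaled to a common library total) in OIR and 60932 to 77624 CPM in nonOIR, and 3 of the 12 were lower in OIR. All 8 neutrophil and all 7 lymphocyte markers stayed under 1 CPM in every library. The 10 monocyte and macrophage markers summed to between 23.6 and 277 CPM in OIR and between 29.9 and 159 CPM in nonOIR, with medians of 142 and 70.5, a median fold of 2.19 over the tested markers, 5 of 6 positive, Ly6c2 at 0 throughout and 0 of the 6 tested markers passing in edgeR. The 7 red cell markers moved with the groups, at 1.87 to 292 CPM in OIR and 0 to 28.9 CPM in nonOIR, with Slc4a1 under 1 CPM in every library, and both tested markers, Hbb-bs and Hbb-bt, rose. The part of red cell, monocyte or neuronal RNA in the results below was not tested. Of the retinal lists, 8 photoreceptor markers summed to between 34.4 and 360 CPM in OIR and between 55.0 and 451 in nonOIR, and 9 markers of retinal neurons to between 26.2 and 49.4 CPM and between 45.0 and 71.1, with 2 of 4 tested (Snap25 and Nefl) lower in OIR and a median log2 fold change of -1.30. The 8 Müller glia and astrocyte markers summed to between 2193 and 19560 CPM in OIR and between 1251 and 10525 in nonOIR, led by Apoe, which microglia also express, and 1 rose (Vim) and 1 fell (Glul). The 8 vessel markers summed to between 9.63 and 38.6 CPM in OIR and between 21.2 and 43.3 in nonOIR, with 1 higher (Acta2), and the 6 progenitor markers to at most 5.67 and 9.16 CPM. OIR replicate 1 had the lowest OIR level for 5 of the 7 condensin members, and OIR replicate 6 the highest for 6 of them.

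Condensin genes, 5 of 7, rose in OIR, and no cohesin gene passed the test. Of the 10 members 5 rose and 0 fell, by edgeR's quasi-likelihood test and a threshold of 0.05 on the p-value adjusted over all tested genes (Benjamini-Hochberg). Among all genes 6.39% were called higher, 4.56% lower and 10.9% in either direction. DESeq2 called 6 members higher, where it called 8.70% of all genes higher and 6.25% lower, and limma-voom called 5, where it called 5.71% higher and 4.70% lower. With lane as a covariate 5 members were higher (9.68% of all genes), and without OIR replicate 1 and nonOIR replicate 8 there were 6 (6.84%). The authors' deposited table calls 6 members higher, where it calls 8.16% of its genes with an adjusted p higher. The 5 were the shared ATPase genes Smc2 and Smc4 and all 3 genes specific to condensin I, Ncapd2, Ncapg and Ncaph. The condensin II genes Ncapd3 and Ncapg2 and the 3 cohesin genes did not pass. These calls do not follow size, since the log2 fold change of Ncaph (0.68) was below those of Ncapd3 (0.79) and Ncapg2 (1.56). The median log2 fold change was 1.55 over the 7 condensin members and 0.16 over the 3 cohesin members, against -0.03 over all genes tested. No member was lower in OIR at an unadjusted p under 0.05 (0 of 10 by edgeR, DESeq2 and limma-voom). In sorted bulk cells, a larger share of cells with a transcript and more of it per cell cannot be told apart.

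**Figure D1:**
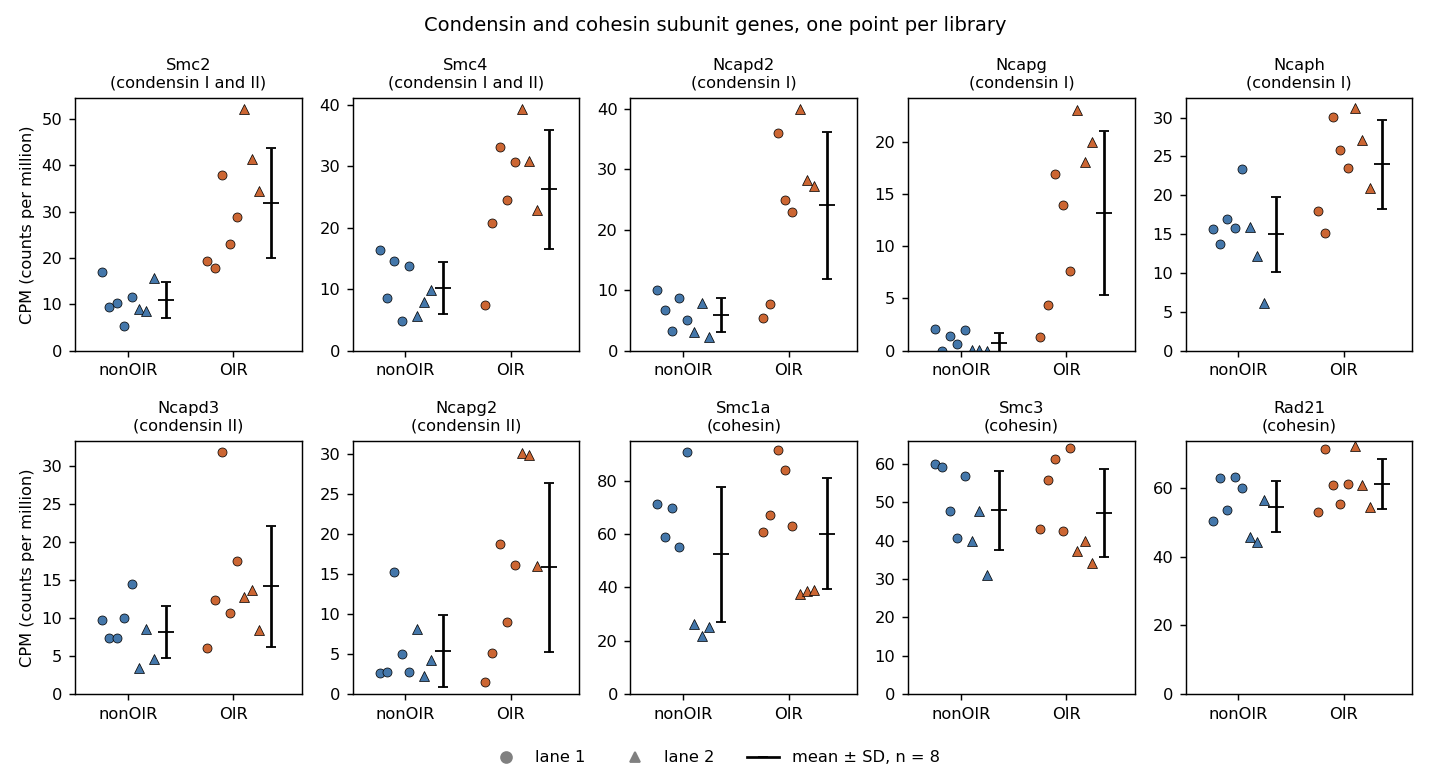
CPM of each member gene (y axis, starting at 0) in the 8 nonOIR and 8 OIR libraries, with circles for lane 1, triangles for lane 2 and the mean ± SD beside each group. Only the Smc2 groups do not overlap, and the Smc1a values separate by lane within each group.

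Smc2, one of the 2 ATPases shared by both condensins, ranged from 17.9 to 52.2 CPM in OIR, with a median of 31.7, and from 5.33 to 17.0 CPM in nonOIR, with a median of 9.86. All 8 OIR libraries lay above the highest nonOIR library, so the groups did not overlap. It was the 1 member of 10 with this pattern, which 1.34% of all tested genes showed with OIR higher and 2.02% in either direction. Smc2 rose 2.94-fold (log2 fold change 1.55 ± 0.25, SE, edgeR adjusted p = 0.000741). Its partner Smc4 ranged from 7.39 to 39.4 CPM in OIR (median 27.6) and from 4.88 to 16.4 CPM in nonOIR (median 9.22). Here 7 of 8 OIR libraries were above every nonOIR library, and OIR replicate 1, at 7.39 CPM, lay among the nonOIR values. Smc4 rose 2.58-fold (log2 fold change 1.37 ± 0.30, SE, edgeR adjusted p = 0.00612).

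Ncapg, a HEAT-repeat subunit of condensin I, had the largest difference among the members. It ranged from 1.35 to 23.0 CPM in OIR, with a median of 15.4, and from 0 to 2.07 CPM in nonOIR, with a median of 0.354. The nonOIR libraries held 120 Ncapg counts in all, and nonOIR replicates 2 and 8 held 0, which allows up to 3 counts in each, for counting error only. In all, 7 of 8 OIR libraries exceeded the highest nonOIR library, and OIR replicate 1 fell within the nonOIR range. The fitted log2 fold change was 4.14 ± 0.82 (SE, edgeR adjusted p = 0.00316), a 17.6-fold rise whose 95% interval runs from 5.40-fold to 57.6-fold. Exons of Ncapg share 944 of 7066 bases with Lcorl on the other strand, and since strand is not marked in these libraries, the reads of that stretch may belong to either gene.

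The other HEAT-repeat subunit of condensin I, Ncapd2, ranged from 5.48 to 39.9 CPM in OIR (median 26.0) and from 2.35 to 10.1 CPM in nonOIR (median 5.90). OIR replicates 1 and 2, at 5.48 and 7.80 CPM, lay within the nonOIR range, and the other 6 of 8 OIR libraries lay above it. Ncapd2 rose 4.09-fold (log2 fold change 2.03 ± 0.39, SE, edgeR adjusted p = 0.00259). Ncaph, the kleisin that closes the condensin I ring, differed least of the 5 called genes. It ranged from 15.2 to 31.3 CPM in OIR (median 24.6) and from 6.08 to 23.4 CPM in nonOIR (median 15.7), and 5 of 8 OIR libraries were above the highest nonOIR library. Ncaph rose by 0.68 ± 0.21 on the log2 scale (SE, edgeR adjusted p = 0.0456). This call held in only 4 of the 16 fits that left out 1 library, those without OIR replicate 1, OIR replicate 2, nonOIR replicate 5 or nonOIR replicate 8, and the highest adjusted p among the other fits was 0.0874.

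Promoter stretches are printed for 3 members, those called higher whose windows carry letters known from genes of the dividing cell. Promoter windows of 300 bases (250 before to 50 after the start, RefSeq, build GRCm38.p6) were found for 8 of the 10 members, all but Smc4 and Rad21. Each was searched on both strands for TTTGAA, the core of the cell cycle genes homology region (CHR) that binds the DREAM and MYBL2-FOXM1 complexes, for CCAAT, the box bound by NF-Y, and for GCGGGAA, a form of the E2F site. TTTGAA was found in 4 of the 8 windows (Smc2, Ncapd2, Ncapg and Ncapg2) and in 17.9% of the 32851 mouse promoter windows. CCAAT was found in 4 of the 8 (Smc2, Ncapd2, Ncapg and Smc1a) and in 37.4% of all windows, and GCGGGAA in 3 of the 8 (Ncapg, Ncapg2 and Smc1a) and in 4.60% of all windows. None of these letters were found in the windows of Ncaph, Ncapd3 and Smc3. Matches did not track the calls over all libraries, since Ncaph was called without a match and Ncapg2 and Smc1a had matches without a call. Counted from the RefSeq start, the TTTGAA match begins in Ncapg 30 bases before the start, in Ncapd2 123 and in Smc2 145 bases before it. Smc2 has a further TTTGAA match after the start and Ncapd2 a further CCAAT match outside the stretch printed, and no matches in these 3 windows overlap. In Ncapg2, neither called over all libraries nor printed, the TTTGAA match begins 18 bases before the start. A match is a description of the letters, not a bound site.

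The stretches upstream of both the RefSeq and the GENCODE start are, 5′ to 3′ on the strand of the gene, with TTTGAA and CCAAT, read on either strand, in capitals, for Ncapg chr5:45669675-45669918 (plus strand), for Ncapd2 chr6:125191702-125191836 (minus strand) and for Smc2 chr4:52438971-52439220 (plus strand).
Ncapg: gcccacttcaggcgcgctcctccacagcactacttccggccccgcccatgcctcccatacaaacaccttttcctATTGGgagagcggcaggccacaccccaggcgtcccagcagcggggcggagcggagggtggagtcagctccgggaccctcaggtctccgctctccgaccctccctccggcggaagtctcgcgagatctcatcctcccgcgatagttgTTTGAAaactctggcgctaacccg
Ncapd2: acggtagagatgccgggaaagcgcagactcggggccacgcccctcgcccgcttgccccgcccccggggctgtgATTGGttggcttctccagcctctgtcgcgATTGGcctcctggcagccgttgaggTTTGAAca
Smc2: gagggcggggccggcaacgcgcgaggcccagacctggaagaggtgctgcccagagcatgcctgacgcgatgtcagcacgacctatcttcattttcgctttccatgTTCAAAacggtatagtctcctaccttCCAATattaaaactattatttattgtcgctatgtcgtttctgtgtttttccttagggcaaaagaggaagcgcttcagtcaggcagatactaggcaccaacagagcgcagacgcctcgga

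Neither condensin II member passed the test. Ncapg2, the condensin II counterpart of Ncapg, ranged from 1.43 to 30.1 CPM in OIR (median 16.0) and from 2.20 to 15.2 CPM in nonOIR (median 3.45). OIR replicate 1 was lower than every nonOIR library, and nonOIR replicate 3, at 15.2 CPM, stood above the other 7 nonOIR libraries, which reached 8.16 CPM at most. The log2 fold change was 1.56 ± 0.51 (SE, edgeR adjusted p = 0.0582), as large as that of Smc2 with about 2 times the error. It passed without OIR replicate 1, OIR replicate 2 or nonOIR replicate 3 (lowest edgeR adjusted p = 0.0148), with scaling by library size (0.0458) and with DESeq2 (adjusted p = 0.0105). Ncapd3, the counterpart of Ncapd2, ranged from 6.00 to 31.8 CPM in OIR (median 12.5) and from 3.39 to 14.5 CPM in nonOIR (median 7.97). Only 2 of 8 OIR libraries were above the highest nonOIR library, and the log2 fold change was 0.79 ± 0.32 (SE, edgeR adjusted p = 0.122). The remaining condensin II gene, the kleisin gene Ncaph2, is not a member and came from a list of pathway genes. It ranged from 65.1 to 132 CPM in OIR (median 87.6) and from 62.9 to 79.8 CPM in nonOIR (median 74.5), and rose 1.30-fold (log2 fold change 0.38 ± 0.12, SE, edgeR adjusted p = 0.0483). That call held in 3 of the 16 fits that left out 1 library, those without OIR replicate 1, 2 or 4, with adjusted p of up to 0.0962 in the others. It was lost with upper quartile scaling (0.0714), no low-count filter (0.0696), limma-voom (0.0657) and in lane 1 alone (0.608). Of the exon bases of Ncaph2, 19.7% are shared with Sco2 and Tymp on the other strand.

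No cohesin member passed the test, and the means of the groups lay within each other's spread. Rad21, the kleisin that separase cuts at anaphase, ranged from 52.8 to 72.2 CPM in OIR (median 60.8) and from 44.3 to 63.1 CPM in nonOIR (median 55.1). Smc3, an ATPase of the ring, ranged from 34.3 to 64.4 CPM in OIR (median 42.7) and from 31.1 to 60.1 CPM in nonOIR (median 47.8). Smc1a, its partner, ranged from 37.3 to 91.4 CPM in OIR (median 61.9) and from 21.9 to 90.8 CPM in nonOIR (median 56.9). The groups overlapped in all 3 genes. The 95% intervals of the fold ran from 0.966 to 1.30 for Rad21 (edgeR adjusted p = 0.341), from 0.784 to 1.24 for Smc3 (edgeR adjusted p = 0.964) and from 0.758 to 1.75 for Smc1a (edgeR adjusted p = 0.726). These intervals leave out a 2-fold difference in either direction for all 3. In the fits without a lane term, none of the 3 reached an unadjusted p under 0.05 with edgeR, DESeq2 or limma-voom. With lane as a covariate, the log2 fold change of Smc1a was 0.29 ± 0.13, against 0.20 ± 0.29 without it (SE, edgeR adjusted p = 0.121 and 0.726). Rad21 and Smc3 did not pass in that fit either (edgeR adjusted p = 0.255 and 0.917).

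Smc1a and Smc3 differed between the lanes. In nonOIR, Smc1a lay between 55.0 and 90.8 CPM in the 5 lane 1 libraries and between 21.9 and 26.1 CPM in the 3 lane 2 libraries. In OIR it lay between 60.7 and 91.4 CPM in lane 1 and between 37.3 and 38.9 CPM in lane 2. The lanes did not overlap in either group, and the 3 OIR libraries of lane 2 all lay above the 3 nonOIR libraries of lane 2. A test of the lane term beside the group, added after these values were seen, put Smc1a at 0.432 of its lane 1 level in lane 2 (log2 -1.21 ± 0.14, SE, edgeR adjusted p = 4.52e-06) and Smc3 at 0.722 (log2 -0.47 ± 0.12, SE, edgeR adjusted p = 0.00886). The other 8 members did not pass for lane, and 24.8% of all tested genes did. The labels give only the code, so lane, animals and preparation cannot be told apart here.

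Fold changes were larger in lane 2 than in lane 1 for most members. Log2 fold changes exceeded those of lane 1 for 9 of the 10 members, Smc3 being the exception. The share of all tested genes with this order was not taken, so the count is not read as particular to the members. In lane 1, with 5 libraries against 5, only Smc2 of the 10 members passed (log2 fold change 1.26 ± 0.29, SE, edgeR adjusted p = 0.0326), where 2.20% of all genes were called higher. Smc4 (log2 fold change 1.02, edgeR adjusted p = 0.190), Ncapd2 (1.54, 0.101), Ncapg (2.90, 0.0778) and Ncaph (0.40, 0.365) did not pass there. In lane 2, with 3 against 3, 7 of the 10 passed as higher, where 9.63% of all genes did. They were the 5 called over all libraries, Ncapg2 (log2 fold change 2.42 ± 0.46, SE, edgeR adjusted p = 0.00798) and Smc1a (0.70 ± 0.16, SE, edgeR adjusted p = 0.0180). For Ncapg the 3 nonOIR libraries of lane 2 held 3 counts in all against 1440 in the 3 OIR libraries, a ratio of 475 after scaling with a 95% counting interval of 162 to 2304.

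A call in 1 lane and not in the other does not show that the lanes differ. The interaction of lane and group, which tests that difference, passed for 0 of the 10 members by edgeR and by limma-voom, and for 0.496% of all genes by edgeR (13.1% at an unadjusted p under 0.05). At an unadjusted p under 0.05 there were 2 members by edgeR, Ncapg (adjusted p = 0.0759) and Smc1a (adjusted p = 0.283), and 1 by limma-voom.

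**Figure D2:**
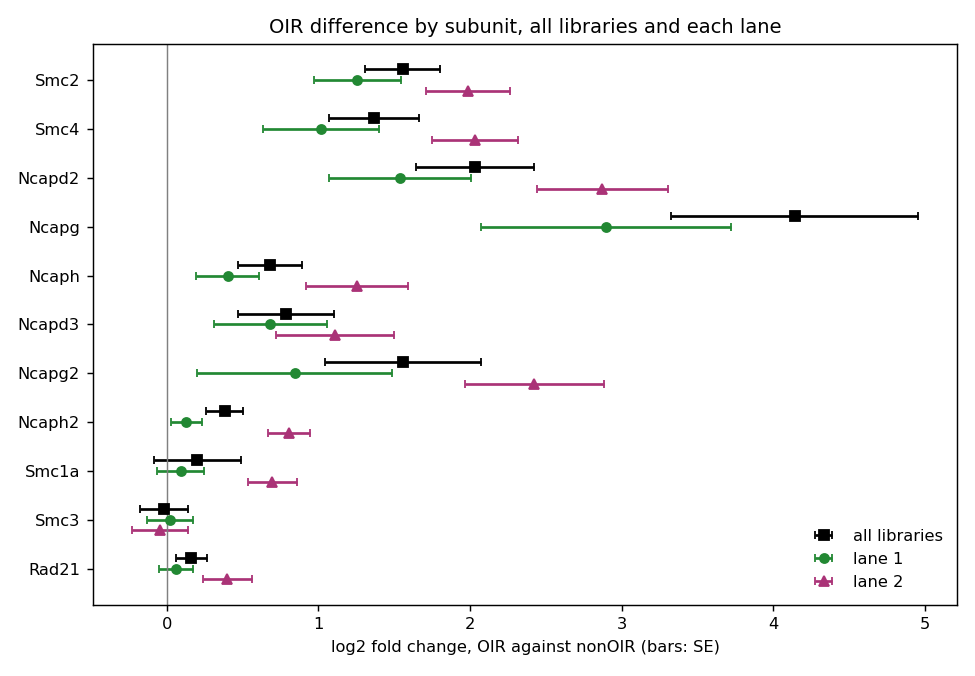
Log2 fold change of OIR against nonOIR (x axis) with its SE for the 10 members and Ncaph2, over all libraries (squares), in lane 1 (circles) and in lane 2 (triangles). The lane 2 value of Ncapg is left out because its 3 nonOIR libraries held 3 counts; condensin genes lie to the right of 0 and Smc3 lies near 0 in each fit.

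Ratios of members within a library differed between the groups in 4 of 5 pairs. For 5 pairs, the log2 ratio of 2 genes was taken in each library and compared between groups by a two-sided exact permutation test, adjusted over the 5 pairs. These pairs share the members' own values, so they describe the relation between members and are no independent evidence of a rise. The ratio of Ncapg to Ncapg2 averaged -0.21 ± 0.54 in OIR libraries and -3.44 ± 2.17 in nonOIR libraries (SD, n = 8, exact permutation adjusted p = 0.00544), and 8 of 8 OIR libraries were above the nonOIR median. Its nonOIR mean is not an exact level, since 4 nonOIR libraries held 0 to 2 Ncapg counts and their ratios rest on the prior count of 2. The difference of 3.23 was 3.95 with a prior count of 0.5 and 2.66 with one of 5, and it passed with each. The ratio of Ncapd2 to Ncapd3 averaged 0.67 ± 0.86 in OIR libraries and -0.52 ± 0.59 in nonOIR libraries (SD, n = 8, exact permutation adjusted p = 0.0137), with 7 of 8 OIR libraries above the nonOIR median. The ratio of the kleisin genes, Ncaph to Ncaph2, averaged -1.97 ± 0.28 in OIR libraries and -2.33 ± 0.57 in nonOIR libraries (SD, n = 8), and this difference did not pass (exact permutation adjusted p = 0.108).

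Between condensin and cohesin, the ratio of Smc2 to Smc3 averaged -0.62 ± 0.73 in OIR libraries and -2.18 ± 0.59 in nonOIR libraries (SD, n = 8, exact permutation adjusted p = 0.00466), a 2.95-fold shift with 8 of 8 OIR libraries above the nonOIR median. The ratio of Smc4 to Smc1a averaged -1.25 ± 0.97 in OIR libraries and -2.29 ± 0.70 in nonOIR libraries (SD, n = 8, exact permutation adjusted p = 0.0350), with 7 of 8 OIR libraries above the nonOIR median. It missed the threshold without OIR replicate 5, 6, 7 or 8 or nonOIR replicate 2 or 4. In lane 1 alone the difference of Smc2 to Smc3 was the only one of the 5 to pass. In lane 2, where 3 against 3 cannot give a p under 0.1, no pair could pass, and all 5 differences had the sign they had over all libraries.

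**Figure D3:**
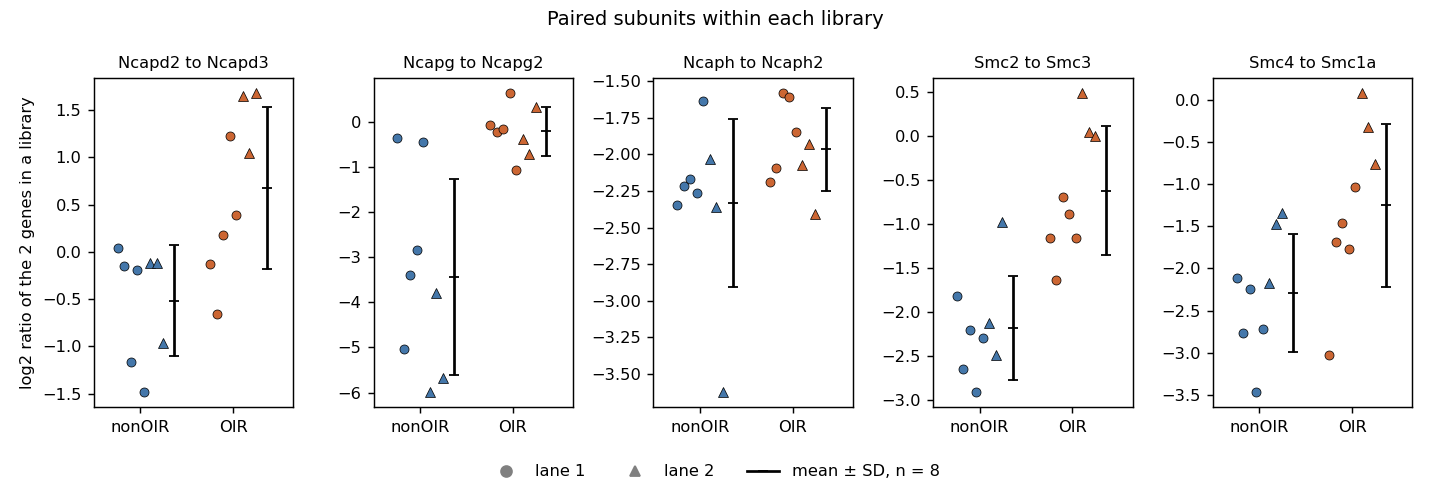
Log2 ratio of 2 genes within each library (y axis, log scale by construction) for 5 pairs, with circles for lane 1, triangles for lane 2 and the mean ± SD of 8 libraries. All 8 OIR libraries lie above the nonOIR median for Ncapg to Ncapg2 and for Smc2 to Smc3, and in all 5 pairs the groups overlap.

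Levels per exon length give the order of the genes within a group, as CPM per kb of exon. In nonOIR, Ncaph2 stood highest at 17.1 ± 1.57, followed by the cohesin genes Rad21 (12.9 ± 1.74), Smc1a (9.07 ± 4.41) and Smc3 (8.65 ± 1.88), all SD with n = 8. The condensin members came after them, from Ncaph (3.48 ± 1.13) through Smc2 (1.98 ± 0.704), Smc4 (1.96 ± 0.814), Ncapd3 (1.04 ± 0.435), Ncapd2 (0.940 ± 0.459) and Ncapg2 (0.539 ± 0.447) to Ncapg (0.108 ± 0.127). Only Ncaph2 over Rad21 and Smc3 over Ncaph held in all 8 nonOIR libraries among the neighbours in this order. The least settled were Ncapd3 over Ncapd2 (3 of 8), Smc1a over Smc3 (4 of 8), Smc2 over Smc4 (5 of 8) and Ncapd2 over Ncapg2 (5 of 8). Rad21 over Smc1a and Ncapg2 over Ncapg held in 6 of 8, and Ncaph over Smc2 and Smc4 over Ncapd3 in 7 of 8.

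In OIR the 4 highest were again Ncaph2 (22.3 ± 5.01), Rad21 (14.4 ± 1.73), Smc1a (10.4 ± 3.61) and Smc3 (8.54 ± 2.07). Smc2 (5.82 ± 2.17), Ncaph (5.57 ± 1.32) and Smc4 (5.03 ± 1.87) followed, with Smc2 above Ncaph in 3 of 8 libraries. Ncapd2 reached 3.84 ± 1.94 CPM per kb, and Ncapg (1.86 ± 1.11), Ncapd3 (1.79 ± 1.01) and Ncapg2 (1.59 ± 1.06) lay within each other's spread. Smc3 was above Smc2 in 5 of 8 OIR libraries.

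**Figure D4:**
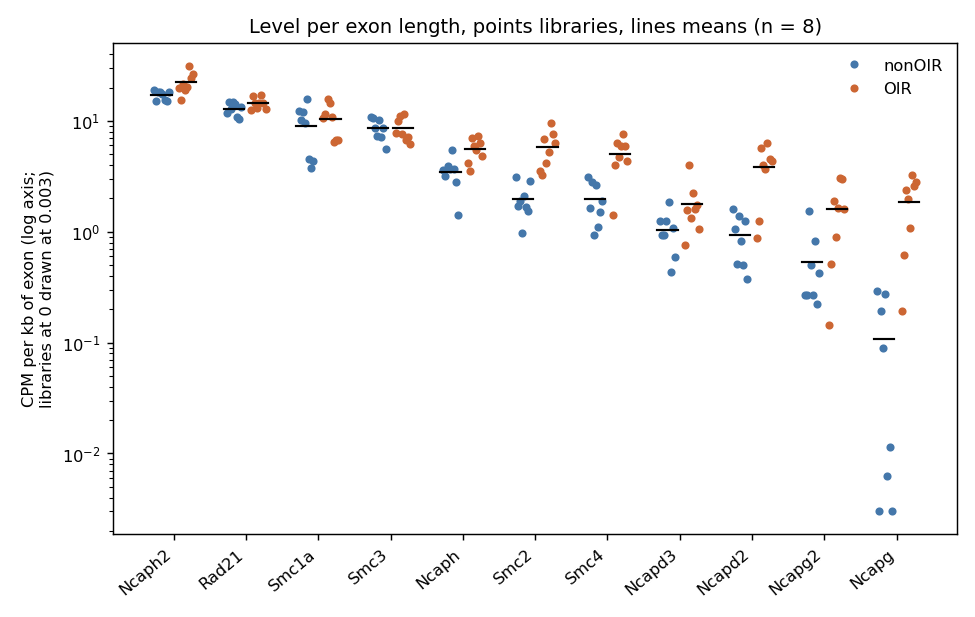
CPM per kb of exon (log axis) for each gene in 8 nonOIR (blue) and 8 OIR (orange) libraries, with lines at the means and libraries at 0 drawn at the bottom. By their means, cohesin genes and Ncaph2 stand above the condensin members in nonOIR, and Ncapg is the lowest gene there.

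The 10 members lie on 10 different chromosomes of the mm10 build (GENCODE M21), so none are neighbours. Ncapg (ENSMUSG00000015880) spans 45669919 to 45700546 on chromosome 5, Ncapd2 (ENSMUSG00000038252) 125168007 to 125191701 on chromosome 6, Smc2 (ENSMUSG00000028312) 52439243 to 52488260 on chromosome 4 and Smc4 (ENSMUSG00000034349) 69004738 to 69034623 on chromosome 3. Smc1a (ENSMUSG00000041133) spans 152016428 to 152062694 on chromosome X. Counts are per gene over its exons. Apart from Ncapg, only Ncapd2 among the members shares exon bases with other genes, 3.78% of its length with Gm28967 and Scarna10 on the same strand.

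Deviations from the mean of a library's group and lane were compared across the 16 libraries to find genes that varied with the members. The comparison is a description over these libraries, and all genes of a library share its depth and preparation. The 5 genes of 9047 closest to the mean of the 7 condensin members were Anln (Pearson r = 0.904), Stmn1 (0.884), Cdt1 (0.881), Cdca8 (0.880) and Hipk3 (0.871). Anln encodes anillin of the cleavage furrow, Stmn1 a microtubule regulator, Cdt1 a licensing factor of DNA replication and Cdca8 borealin of the chromosomal passenger complex. Hipk3 is given no such role here and had the smallest rise of the 5, 1.39-fold (edgeR adjusted p = 0.0454). Its call held in 3 of the 16 fits that left out 1 library. Each condensin member followed the mean of the other 6 with r between 0.485 (Smc2) and 0.752 (Smc4). The 3 cohesin members followed the mean of the other 2 with r between -0.0944 (Rad21) and 0.0919 (Smc3). The genes closest to the cohesin mean were Zbtb21 (0.881), Lrrcc1 (0.868), Hsp90b1 (0.866), Nusap1 (0.861), of the mitosis and spindle list below, and Klhl5 (0.850). Each set of 5 was picked as the highest of 9047 genes, and how high r runs by chance was not tested. The highest r was 0.904 for the condensin mean and 0.881 for the cohesin mean, whose members did not follow each other.

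Among other genes of chromosome structure, mitotic genes made up most of the rises. Of 43 tested genes from 5 lists, 18 rose and 2 fell, where 10.9% of all genes were called. Besides Ncaph2, the rises fell in 2 of the 5 lists. In the mitotic chromosome list 13 of 17 tested genes rose and 0 fell, with a median log2 fold change of 2.77. Top2a, the topoisomerase that untangles sister chromatids alongside condensin, was at 51.4 ± 26.6 CPM in OIR libraries against 5.46 ± 3.24 in the others and rose with no overlap (SD, n = 8, log2 fold change 3.24, edgeR adjusted p = 0.000467). Plk1 and Cdca8, which act in mitosis, rose by 3.70 and 2.91 on the log2 scale, Birc5 (survivin) by 3.53 and the checkpoint gene Bub1b by 3.05. Mki67, whose protein coats mitotic chromosomes, was at 9.45 ± 6.80 CPM in OIR and 2.71 ± 3.34 in nonOIR (SD, n = 8) and did not pass (log2 fold change 1.82, edgeR adjusted p = 0.168). It passed in the fit with a lane term (6.08-fold against 3.53-fold without it, edgeR adjusted p = 0.0265), in lane 2 alone, where nonOIR libraries held at most 0.178 CPM (edgeR adjusted p = 0.00128), and with limma-voom (3.58, adjusted p = 0.0435).

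Among 14 regulators of cohesin, 4 rose and 1 fell, with a median log2 fold change of 0.02. Of all tested genes 6.39% were called higher and 4.56% lower. The 4 were Sgo2a and Sgo1, shugoshins that protect centromeric cohesin, Cdca5 (sororin), which holds cohesin on replicated DNA, and Esco2, the acetyltransferase that establishes cohesion in S phase. Cdca5 rose from 2.56 ± 1.50 to 10.4 ± 4.61 CPM and Esco2 from 1.50 ± 1.42 to 10.5 ± 4.68 (SD, n = 8, edgeR adjusted p = 0.00305 and 0.00458), and Esco2 did not pass in lane 1 alone (0.0668). Sgo2a rose from 0.104 ± 0.143 to 3.61 ± 1.71 CPM (SD, n = 8, edgeR adjusted p = 0.000465) with no overlap between the groups. Sgo1 rose by 2.74 on the log2 scale (edgeR adjusted p = 0.0283), a call lost without OIR replicates 6, 7 or 8 or nonOIR replicate 1 (edgeR adjusted p of up to 0.0667), with no low-count filter (0.0584) and in lane 1 alone (0.347). The loader gene Mau2 fell by 0.43 on the log2 scale (edgeR adjusted p = 0.0379). That call held in 5 of the 16 fits that left out 1 library, those without OIR replicate 1, 2 or 5 or nonOIR replicate 1 or 5, with adjusted p of up to 0.0860 in the others. It was lost with scaling by library size (0.0701), with no low-count filter (0.0767) and in lane 1 alone (0.554). The other 9, which include the loader gene Nipbl, the release factor gene Wapl and Ctcf, did not pass.

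Of the 6 other cohesin core genes 3 were tested and 0 passed in edgeR, and Smc1b, Rec8 and Rad21l were removed by the low-count filter. Stag1 and Stag2, which encode alternative subunits bound to RAD21, were at 71.6 ± 14.0 and 97.3 ± 17.5 CPM in OIR and at 70.2 ± 9.66 and 102 ± 19.1 in nonOIR (SD, n = 8). Stag3, known from meiotic cohesin, was at 4.67 ± 1.70 CPM in OIR and 0.984 ± 1.21 in nonOIR (SD, n = 8, log2 fold change 2.24, edgeR adjusted p = 0.0549) and was not called. Of the fits that left out 1 library, it passed in the 1 without nonOIR replicate 3 (edgeR adjusted p = 0.0204). It also passed in the fit with a lane term (6.06-fold, edgeR adjusted p = 0.0182), in lane 2 alone, where nonOIR libraries held at most 0.624 CPM (edgeR adjusted p = 0.0440), with scaling by library size (0.0430), with a stricter low-count filter (0.0479), with DESeq2 (0.0102) and with limma-voom (0.00903). Of 8 tested genes of the SMC5 and SMC6 complex and Smchd1, 0 rose and 1 fell. That is 12.5% called, near the 10.9% of all tested genes called in either direction. Nsmce3, a subunit of that complex, fell from 33.2 ± 1.88 to 26.3 ± 2.16 CPM (SD, n = 8, edgeR adjusted p = 0.0204). Its groups did not overlap, as in 2.02% of all tested genes in either direction. The Nsmce3 call was lost without OIR replicate 6 (edgeR adjusted p = 0.0590), with scaling by library size (0.0627) and with no low-count filter (0.114). It was also lost within lane 1 (0.140) and lane 2 (0.267). Smc5 was at 20.8 ± 2.76 CPM in OIR and 17.9 ± 5.09 in nonOIR (SD, n = 8, edgeR adjusted p = 0.475).

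Lists of cell division genes were set beside the members. Of 18 mitosis and spindle genes 15 rose and 0 fell, with a median log2 fold change of 3.00. Of 22 DNA replication genes 18 rose and 0 fell, with a median of 1.32. Among all tested genes 6.39% were called higher and 4.56% lower. The median of the 7 condensin members was 1.55, and the difference between lists was not tested. Rrm2, a subunit of ribonucleotide reductase, and the cyclin gene Ccnb1 rose by 2.92 and 3.33 on the log2 scale, and the helicase genes Mcm5, Mcm6 and Mcm7 by 1.88, 1.38 and 1.33, of which Mcm6 (edgeR adjusted p = 0.0562) and Mcm7 (0.0502) did not pass in lane 1 alone.

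**Figure D5:**
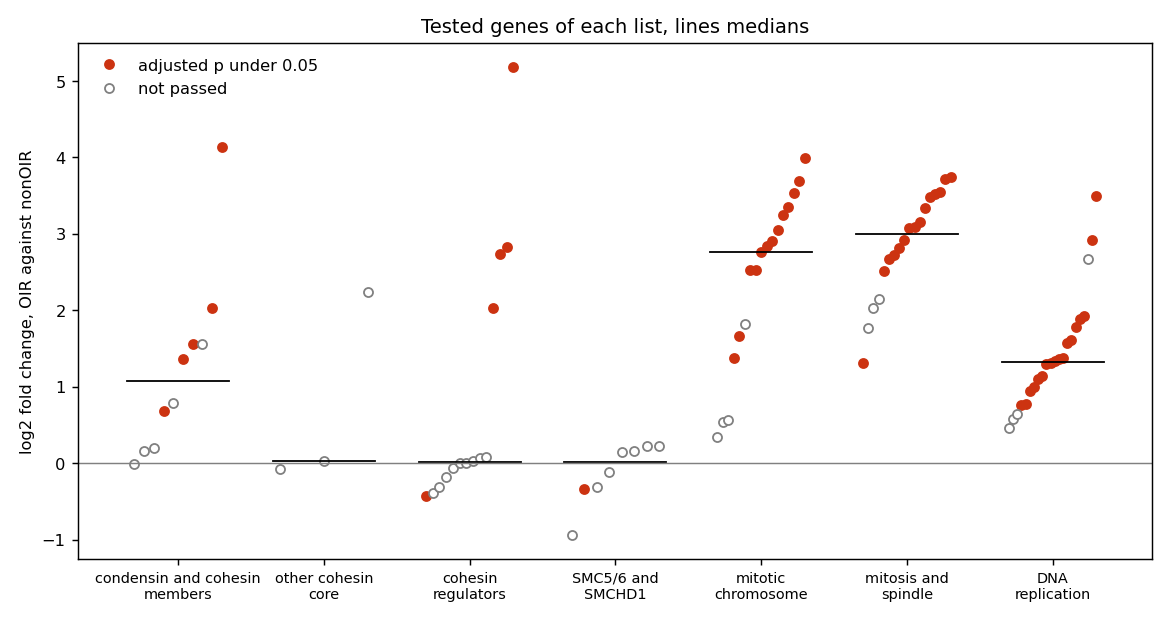
Log2 fold change of OIR against nonOIR (y axis) for each tested gene of the members and 6 lists, filled where the edgeR adjusted p is under 0.05, with lines at the medians. Mitotic and replication genes lie mostly above 0, while the medians of cohesin core, cohesin regulator and SMC5 and SMC6 genes lie near 0. Away from 0 in these lists are 4 regulators that rose and, not passed, Stag3 of the cohesin core (2.24) and Eid3 (-0.94).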

How the data were processed

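RNA was sequenced from sorted retinal cells (SMARTer v4 and Nextera XT, 750 pg of total RNA, 12 cycles of cDNA amplification, single reads of 50 bases, per the labels' protocols). Values tested are the raw counts deposited by the authors, whole numbers of reads for each gene. The submitters' processing notes name the build mm10 and the tools featureCounts 1.6.2, STAR 2.6.0b-1 and DESeq2 2.11.40.2, with no roles; the authors' gene annotation was not given in those sources. Beside the counts, the authors deposited normalized signal values, log2 fold changes, Wald scores and p-values, which entered no test.

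After filterByExpr and TMM scaling, edgeR 4.0.16 (R 4.3.3, robust glmQLFit, glmQLFTest) compared the groups, p-values being two-sided and adjusted by Benjamini-Hochberg across 12496 genes. The code was tested on simulated data. The SE is the log2 fold change divided by the root of the F statistic. Ratios used log2 CPM with a prior count of 2. Amplified reads are not independent molecules, so counting intervals cover counting error only.

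Members and gene lists were chosen with earlier results of these data known. Genes named are the members, Ncaph2, Stag1, Stag2, Top2a, Mki67, up to 4 of lowest p in each list and, for likeness, the 5 closest of at least 5 CPM. Mau2, Nipbl, Wapl, Ctcf and the markers named as changed were named after their values were seen, and 1 marker is not reported here by its own value. Exon lengths came from GENCODE M21. The groups share replicate numbers, but same-numbered libraries did not deviate together. Alternatives covered scaling, low-count filters, DESeq2 1.42.0, limma-voom (limma 3.58.1), lane, a replicate block and the omission of libraries.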

Additional observations from a re-analysis of the deposited data

Results flagged for a closer look

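Within a group of 8, a library was marked where its gap to the nearest other library, divided by the range of the group, exceeded 0.526 (Dixon's 95% value). Of 32 such groups of values 3 were marked, and chance marks about 1 in 20. Ncapd3 stood at 31.8 CPM in OIR replicate 3, where the next OIR library had 17.5 CPM. Without that library its log2 fold change was 0.51, the lowest of any single omission. Ncapg2 stood at 15.2 CPM in nonOIR replicate 3, and without it the gene passed the edgeR test (log2 fold change 2.00, adjusted p = 0.0170). The log2 ratio of Ncaph to Ncaph2 was -3.63 in nonOIR replicate 8, the library with the lowest Ncaph level (6.08 CPM).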

How the results depend on the processing

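The count of 5 members higher in OIR was between 4 and 6 in each of the 16 fits that left out 1 library, 6 without OIR replicate 1 and nonOIR replicate 8 together, and 1 in lane 1 alone. The number lower stayed at 0 in all alternatives run. Smc2 kept its call in every alternative. In lane 1 alone the calls of Smc4 (log2 fold change 1.02), Ncapd2 (1.54), Ncapg (2.90) and Ncaph (0.40) were lost, and Ncaph also lost its call with no low-count filter (0.69). Ncapg2 gained a call with scaling by library size (1.66), DESeq2 (1.58), the replicate block (1.43), lane 2 alone (2.42) and without OIR replicate 1 and nonOIR replicate 8 (1.70), and Smc1a in lane 2 alone (0.70). Smc3, never called, changed sign with scaling by library size (0.048) and in lane 1 (0.020). Over the 16 omissions Ncaph ranged from 0.56 to 0.80, Ncapg2 from 1.38 to 2.00 and Smc3 from -0.088 to 0.050.

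Other chromosome structure genes higher in OIR numbered 11 in lane 1 and between 16 and 19 over the omissions. Those lower numbered 0 with scaling by library size, with no filter and in lane 1, and between 0 and 2 over the omissions. Mitosis and replication genes higher numbered 12 in lane 1. Of all genes, 1210 were higher with lane as a covariate, 276 in lane 1 and 1260 in lane 2, and 364 were lower with scaling by library size, 343 with no filter, 949 with lane as a covariate and 141 in lane 1. Over the omissions between 353 and 648 were lower, the 353 without OIR replicate 6. Of the genes called, 58.3% were higher with TMM, 73.7% with library size alone and 51.1% with upper quartile scaling.

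Ratio differences missed the threshold in lane 1 for Ncapd2 to Ncapd3 (0.79), Ncapg to Ncapg2 (2.24) and Smc4 to Smc1a (0.87), and in lane 2, where they could not pass, at 1.85, 4.89 and 1.32, with 2.04 for Smc2 to Smc3. Over the omissions Smc4 to Smc1a ranged from 0.85 to 1.29 and lost its call in 6 of 16, and Ncaph to Ncaph2 ranged from 0.18 to 0.46 and gained one without nonOIR replicate 5. Fewer libraries were fitted in a lane or an omission; the cause of the other changes was not tested. Same-numbered libraries of the 2 groups correlated between -0.0156 and 0.202 in their deviations, so the number gives no pairing; with the replicate block 6 members were higher and no call of the 5 was lost. Of the other named genes the block gave Mki67 (3.02) and Nsmce4a (-0.33) a call and took those of Ncaph2 (0.36) and Mau2 (-0.43).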

Other observations

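The 6 members called in the authors' deposited table are the 5 above and Ncapg2 (authors' adjusted p = 0.0169). In that table the log2 fold change of Ncapg is 1.01 ± 0.28 (the authors' standard error), smaller than that of Smc2 (1.33 ± 0.22) and of Ncapd2 (1.46 ± 0.27). The raw counts deposited beside it were 120 over the nonOIR and 2682 over the OIR libraries for Ncapg. Its mean CPM in OIR was 17.2 times that in nonOIR, so the deposited log2 value is not a plain ratio of these counts. For Ncapg2 the deposited value is 0.93, where DESeq2 on the same counts gave 1.58 here. The processing notes do not say how the deposited values were computed. The 2 sets of sizes are thus unlike measures, and their orders cannot be set against each other.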
